A study of Homo sapiens with 12 samples.

Results

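Targets of the transcription factor NRF2 that either reduce carbonyl compounds at the cost of NADPH or supply the NADPH were examined, 9 genes in all: the aldo-keto reductases AKR1B1, AKR1B10, AKR1C1, AKR1C2 and AKR1C3, the quinone reductase NQO1, and the enzymes PGD, ME1 and TALDO1. Members were all probe sets whose annotated gene symbol is 1 of these 9 genes, or includes one in the case of AKR1C probe sets that cover several genes. Of the 9 genes, 8 were measured, by 21 probe sets, out of 19775 genes and 54613 probe sets besides controls. AKR1B1 was not analysed here. The arrays were Affymetrix 3′ expression arrays of A549, a human lung adenocarcinoma line that carries an inactivating KEAP1 mutation. Viable cells were stained with Hoechst dye at 5 µg/ml for 90 min and sorted by flow cytometry into the side population (SP), which keeps little dye because it pumps it out, and the remaining non-SP cells. The 4 groups were SP and non-SP cells from cultures kept for 48 h with 100 µg/ml of a monoclonal antibody to EpCAM (called anti-EpCAM below), and SP and non-SP cells from untreated cultures. Each group had 3 biological replicates, which makes 12 arrays of 1 cell line. Whether the word mouse in the label of the antibody stands for its host or its target is not stated, and the labels name no control antibody for the untreated cultures.

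NRF2, encoded by NFE2L2, binds antioxidant response elements together with small MAF proteins, and KEAP1 normally marks it for degradation, so that oxidants and electrophiles free it to act. In lung cancer cells in which KEAP1 is inactive NRF2 stays on, and aldo-keto reductases and NQO1 are among its most abundant products. The aldo-keto reductases use NADPH to reduce retinaldehyde, lipid aldehydes, ketosteroids and prostaglandins. PGD and TALDO1 belong to the pentose phosphate pathway, in which PGD itself makes NADPH, and ME1 makes NADPH from malate in the cytosol.

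Values are log2 expression values after RMA as deposited, in which a difference of 1 is a doubling, and differences are SP minus non-SP or anti-EpCAM minus untreated. An SP array was compared with the non-SP array that shares its treatment and number, which gives 6 pairs. In limma's moderated test a probe set passed at a Benjamini-Hochberg adjusted p under 0.05 over the 32768 probe sets whose mean lay above 5.39, the 40th percentile. SEs and intervals are limma's, in which the spread of each probe set is drawn towards that of all probe sets tested. Of the 21 member probe sets, 20 were above this level, and the exception was an AKR1C1 probe set with a mean of 5.19. Array medians ranged from 5.58 to 6.24. Ranked from low to high, the values of the 2 arrays of a pair were on average 0.0093 to 0.022 apart, and those of arrays from different pairs 0.046 to 0.52, so levels are set side by side mainly within pairs. Precision is limited by the number of arrays. All 6 epithelial markers were above the filter, as were the 3 measured alveolar type II markers, with means of 6.08 to 7.78. Of the markers of other cells, 2 of 3 for leukocytes and 1 of 3 for endothelium were above it. So were 1 of 3 for fibroblasts and 1 of 1 for erythroid cells. These were CD14 (mean 6.83), CD3E (6.71), PECAM1 (6.71), DCN (6.14) and HBB (7.47), within the range of the alveolar type II markers. Being above the filter therefore does not by itself show that a marker is expressed. Below it, the leukocyte gene PTPRC had a mean of 4.31, the endothelial gene CDH5 of 3.79 and the fibroblast gene LUM of 3.74. VWF at 5.36 and PDGFRA at 5.13 were also below it. As a check of the sort, ABCG2, a dye efflux pump, rose by 0.49 ± 0.06 in SP cells (SE, n = 6 pairs, limma adjusted p = 0.0224), and EPCAM was 0.26 ± 0.06 higher, without passing (limma adjusted p = 0.111; 0.0435 with 1 probe set per gene).

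The question for these genes was whether their RNA differs between SP and non-SP cells, and with the antibody. It did not differ detectably in either comparison. For AKR1B10 and the AKR1C genes, the leading probe sets lay close to the top of the measuring range. Pair differences were small there for any probe set, as given further on. The narrow intervals of these genes are limits on array values and may not be limits on RNA. Of the 20 member probe sets tested, 0 passed between SP and non-SP cells over both treatments in limma, and 0 had an unadjusted p under 0.05. Over the whole array 0.641% of probe sets passed in that comparison, 0.156% higher and 0.485% lower in SP cells, and 14.3% had an unadjusted p under 0.05. The median difference over the 20 probe sets was 0.025, against 0.0060 over all probe sets tested. The median size of the difference, sign ignored, was 0.044 for the members and 0.071 for all probe sets. The 14 member probe sets with a positive estimate and the 6 with a negative one lay between -0.13 and 0.19. For the brightest members limma's SE was wider than their own pairs give, so the p-values do not show that their pairs disagreed.

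**Figure D1:**
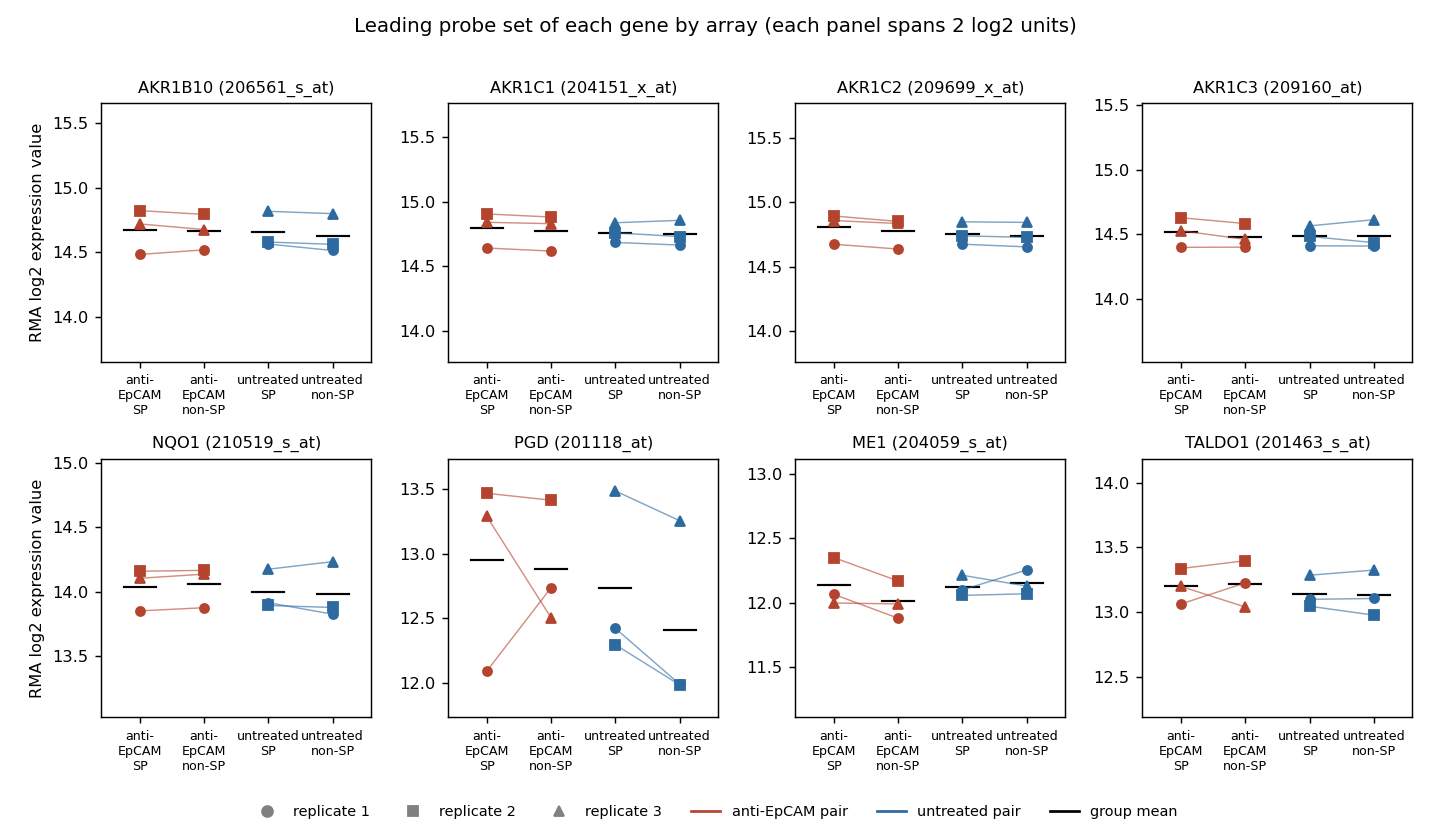
RMA log2 value (vertical axis, 2 log2 units in each panel) of the leading probe set of the 8 measured genes in anti-EpCAM SP, anti-EpCAM non-SP, untreated SP and untreated non-SP arrays. Points are single arrays, lines join the SP and non-SP array of a pair, and bars are means of 3 arrays; PGD spans 11.98 to 13.48 while AKR1C1 spans 14.62 to 14.91.

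AKR1B10 reduces retinaldehyde and aliphatic aldehydes and is scarce in normal lung but common in lung cancers of smokers. The gene lies at chr7:134527567-134541412 (GRCh38.p14), and 1 probe set, 206561_s_at, measures it. It read 14.48, 14.82 and 14.72 in anti-EpCAM SP cells, against 14.52, 14.79 and 14.68 in anti-EpCAM non-SP cells. Untreated cultures gave 14.56, 14.58 and 14.82 in SP cells, against 14.51, 14.56 and 14.80 in non-SP cells. All 4 groups overlapped, and SP cells were slightly higher in 5 of 6 pairs. The mean of SP minus non-SP was 0.020 ± 0.048 (SE, n = 6 pairs), a 1.01-fold difference with a 95% interval of 0.939 to 1.10 (limma adjusted p = 0.885). Anti-EpCAM minus untreated, over pair means, was 0.030 ± 0.18 (SE, n = 3 pairs each), a ratio of 1.02 with an interval of 0.768 to 1.36 (limma adjusted p = 1.00).

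The AKR1C genes encode ketosteroid and prostaglandin reductases that lie side by side on chromosome 10, AKR1C1 at chr10:4963415-4983283, AKR1C2 at chr10:4987775-5018000 and AKR1C3 at chr10:5048781-5107686 (GRCh38.p14). AKR1C1 is best known for inactivating progesterone, AKR1C2 for reducing dihydrotestosterone, and AKR1C3 for making testosterone and prostaglandin F2α. The RefSeq windows of the 3 genes are shown because the genes are near copies of each other. Their values rise and fall together over the arrays, as given further on, but this is not particular to them. AKR1B10 had Pearson's r of 0.96 with NQO1, against 0.92 for AKR1C1 with AKR1C3. A link of sequence and level was not tested. Each line gives the 120 bases before a start site that the RefSeq table gives for that gene (GRCh38.p14), on the gene's strand, and capitals mark the 19 bases that are the longest stretch shared by all 3. The table has 2 windows for AKR1C3, and the one shown and compared is that with the higher coordinates.
AKR1C1, chr10:4963295-4963414, plus strand: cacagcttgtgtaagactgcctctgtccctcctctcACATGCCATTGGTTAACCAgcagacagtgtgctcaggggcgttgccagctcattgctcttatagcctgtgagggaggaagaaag
AKR1C2, chr10:5003858-5003977, minus strand: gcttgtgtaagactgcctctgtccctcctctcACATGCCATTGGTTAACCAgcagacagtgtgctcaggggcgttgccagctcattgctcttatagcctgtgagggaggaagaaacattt
AKR1C3, chr10:5094294-5094413, plus strand: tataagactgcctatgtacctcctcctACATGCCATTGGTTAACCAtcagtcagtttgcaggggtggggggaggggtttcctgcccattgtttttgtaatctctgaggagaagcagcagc
Over the 250 bases before each start, AKR1C1 and AKR1C2 were identical at 99.6% of aligned positions, AKR1C1 and AKR1C3 at 79.1%, and AKR1C2 and AKR1C3 at 79.5%. The x_at probe sets of AKR1C1 and AKR1C2 may take up RNA of both genes, so their values are uncertain as measures of 1 gene, and probe set 1555854_at is annotated to both.

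AKR1C1 probe set 204151_x_at read 14.64, 14.91 and 14.84 in anti-EpCAM SP cells, against 14.62, 14.88 and 14.83 in anti-EpCAM non-SP cells. Without the antibody it read 14.68, 14.76 and 14.84 in SP cells, against 14.66, 14.73 and 14.86 in non-SP cells. The groups overlapped throughout, and the 2 arrays of a pair never differed by more than 0.029. Over the 6 pairs SP minus non-SP was 0.015 ± 0.047 (SE, n = 6 pairs), with a fold interval of 0.936 to 1.09 (limma adjusted p = 0.918). AKR1C2 probe set 209699_x_at read 14.67, 14.89 and 14.86 in anti-EpCAM SP cells, against 14.64, 14.85 and 14.83 in anti-EpCAM non-SP cells. In untreated cultures it read 14.67, 14.74 and 14.85 in SP cells, against 14.65, 14.73 and 14.84 in non-SP cells. Its SP value was the higher one in all 6 pairs, by 0.0045 to 0.042, and the groups still overlapped. SP minus non-SP was 0.023 ± 0.047 (SE, n = 6 pairs), with a fold interval of 0.942 to 1.10 (limma adjusted p = 0.864). The 6 differences themselves had an SD of 0.014, and those of AKR1C1 an SD of 0.017. The SEs of these 2 probe sets therefore rest mostly on the spread of other probe sets.

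AKR1C3 probe set 209160_at read 14.40, 14.63 and 14.53 in anti-EpCAM SP cells, against 14.40, 14.58 and 14.46 in anti-EpCAM non-SP cells. Untreated cultures gave 14.41, 14.48 and 14.56 in SP cells, against 14.41, 14.43 and 14.61 in non-SP cells. Again no group stood apart, and SP was higher in 4 of 6 pairs. The mean of SP minus non-SP was 0.019 ± 0.048 (SE, n = 6 pairs), with a fold interval of 0.937 to 1.10 (limma adjusted p = 0.896).

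The other AKR1C probe sets split by level. The bright ones, 216594_x_at for AKR1C1 and 211653_x_at for AKR1C2, gave 0.032 ± 0.048 and 0.031 ± 0.054, and 1555854_at, annotated to both genes, gave 0.039 ± 0.057 (SE, n = 6 pairs). The dimmer ones gave negative estimates, which were -0.13 ± 0.15 for AKR1C1 217626_at, -0.11 ± 0.07 for AKR1C1 1555856_s_at and -0.12 ± 0.08 for AKR1C2 244266_at. None of the 6 passed, with limma adjusted p between 0.537 and 0.834. The pair differences of AKR1C1 217626_at were, after those of a PGD probe set described below, the widest of all member probe sets, from -0.88 in anti-EpCAM pair 2 to 0.33 in anti-EpCAM pair 3, so that the same gene read higher or lower depending on the pair.

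The dimmest AKR1C1 probe set, 1555855_at, was left out of the test by its low mean, but it was the only member probe set lower in SP cells in all 6 pairs. It read 4.45, 5.24 and 5.82 in anti-EpCAM SP cells, against 4.72, 5.46 and 6.05 in anti-EpCAM non-SP cells. Without the antibody it read 4.29, 4.94 and 5.66 in SP cells, against 4.50, 5.17 and 6.04 in non-SP cells. Groups overlapped and the replicates of a group lay over 1 log2 unit apart, while the 6 pair differences lay between -0.39 and -0.21. Tested without any filter, SP minus non-SP was -0.26 ± 0.06 (SE, n = 6 pairs), with an unadjusted p of 0.00147 and a limma adjusted p of 0.113 over 54613 probe sets. Of the probe sets annotated to AKR1C1 alone, 3 thus had a negative estimate, and 2, both near the top of the measuring range, a positive one. Probe set 1555854_at, annotated to AKR1C2 and AKR1C1 and with a mean of 12.22, also had a positive estimate, 0.039.

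**Figure D2:**
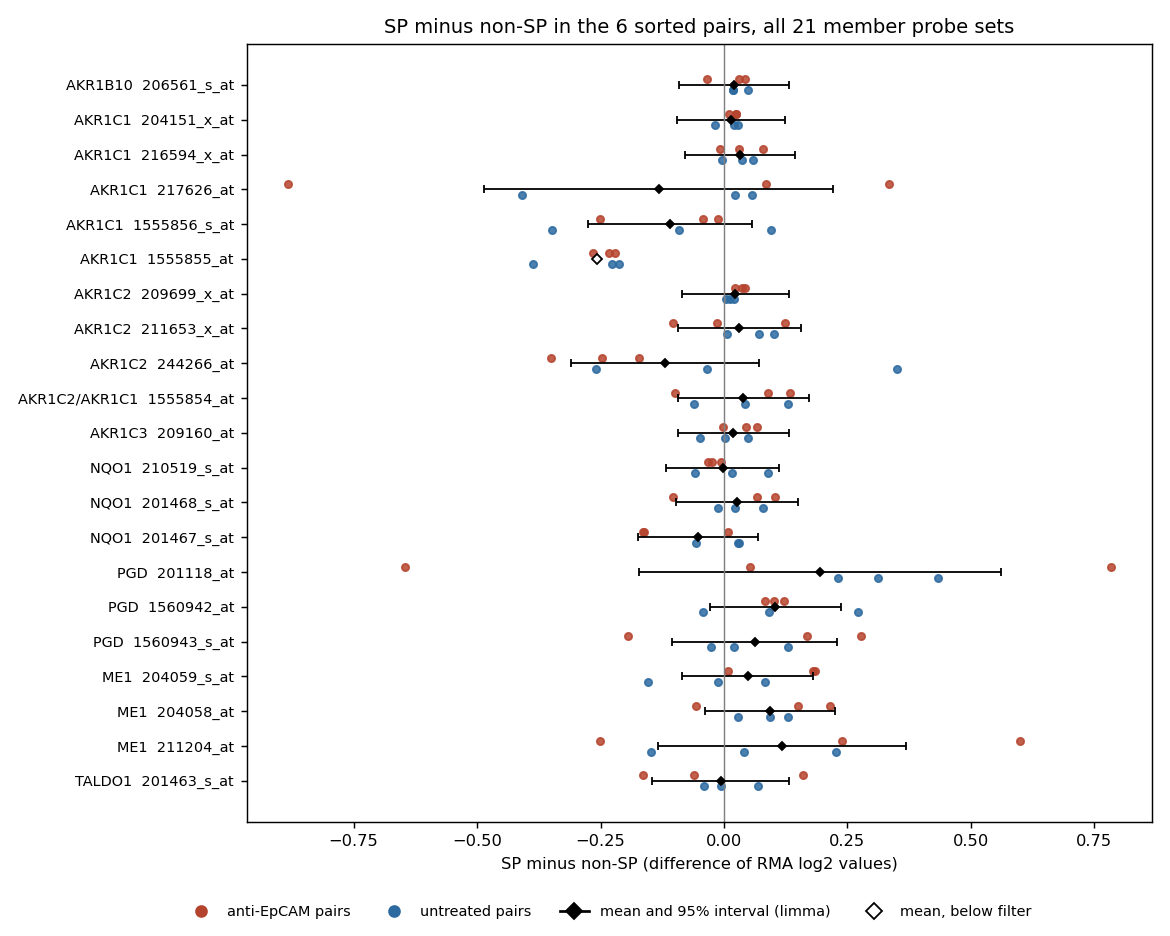
SP minus non-SP (horizontal axis, difference of RMA log2 values) in the 3 anti-EpCAM and 3 untreated pairs for all 21 member probe sets. Small points are pairs, diamonds are means with limma's 95% interval, and the open diamond is AKR1C1 1555855_at, below the filter, whose 6 pairs lie between -0.39 and -0.21; all 20 intervals drawn include 0.

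NQO1 reduces quinones by transferring electrons in pairs and is a standard reporter of NRF2 activity (chr16:69709401-69726560, GRCh38.p14). Probe set 210519_s_at read 13.85, 14.16 and 14.10 in anti-EpCAM SP cells, against 13.88, 14.17 and 14.14 in anti-EpCAM non-SP cells. In untreated cultures it read 13.92, 13.89 and 14.17 in SP cells, against 13.83, 13.88 and 14.23 in non-SP cells. SP was slightly lower in all 3 anti-EpCAM pairs and higher in 2 of 3 untreated pairs, and no group stood apart. Over the 6 pairs SP minus non-SP was -0.0029 ± 0.049 (SE, n = 6 pairs), with a fold interval of 0.922 to 1.08 (limma adjusted p = 0.986). The other NQO1 probe sets gave 0.026 ± 0.053 for 201468_s_at and -0.052 ± 0.052 for 201467_s_at, so the 3 probe sets of this gene did not share a sign.

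PGD, the 6-phosphogluconate dehydrogenase, was the member that varied most (chr1:10399064-10420511, GRCh38.p14). Probe set 201118_at read 12.09, 13.47 and 13.29 in anti-EpCAM SP cells, against 12.74, 13.41 and 12.50 in anti-EpCAM non-SP cells. Untreated cultures gave 12.42, 12.29 and 13.48 in SP cells, against 11.99, 11.98 and 13.25 in non-SP cells. SP was higher in all 3 untreated pairs, by 0.43, 0.31 and 0.23, and the anti-EpCAM pairs gave -0.65, 0.05 and 0.78, so that antibody-treated cultures held both the lowest and the highest difference. SP minus non-SP was 0.19 ± 0.16 (SE, n = 6 pairs), a 1.14-fold difference with a 95% interval of 0.887 to 1.48 (limma adjusted p = 0.621). Without anti-EpCAM pair 1 the value was 0.37 ± 0.11 (unadjusted p = 0.0116, limma adjusted p = 0.146), and without anti-EpCAM pair 3 it was 0.014 ± 0.11 (limma adjusted p = 0.966). The dim PGD probe sets gave 0.10 ± 0.06 for 1560942_at and 0.062 ± 0.072 for 1560943_s_at (limma adjusted p = 0.458 and 0.739).

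The RNA integrity controls moved with PGD. The array carries 5′ and 3′ probe sets of GAPDH and ACTB, and the 5′ minus 3′ value falls as RNA or its labelled copy is shortened. Within pairs, SP minus non-SP of the GAPDH control was -0.54, -0.30 and 0.38 in anti-EpCAM pairs 1, 2 and 3, and 0.11, -0.0063 and -0.11 in untreated pairs 1, 2 and 3. The 6 PGD differences had the same order as these values. Pearson's r was 0.966 (exact two-sided permutation p = 0.00139, adjusted p = 0.0222 over the 16 relations of 8 genes with 2 controls) and Spearman's rho was 1 (exact permutation p = 0.00278, adjusted p = 0.0444), the smallest p-values that 6 pairs allow. Without anti-EpCAM pairs 1 and 3, the farthest from the median, r was 0.999 over 4 pairs. For the ACTB control, whose differences ran from -1.86 in anti-EpCAM pair 1 to 2.09 in anti-EpCAM pair 3, r with PGD was 0.967 (exact permutation p = 0.00833, adjusted p = 0.0667), rho was 0.771 (exact permutation p = 0.103, adjusted p = 0.329), and r fell to 0.765 without the same 2 pairs. Each treatment holds 3 pairs, too few for a value of its own. The relations with the controls were looked at after the pair differences had been seen. With the GAPDH difference as a covariate SP minus non-SP of PGD was 0.19 ± 0.06 (unadjusted p = 0.0203, limma adjusted p = 0.239), and with that of ACTB 0.19 ± 0.06 (unadjusted p = 0.0108, limma adjusted p = 0.169). Each covariate was centred over the 6 pairs, so the value stays that of the main fit by construction and only its SE could change. The SE was 0.16 without a covariate, so the PGD differences spread less around the fit once either control was included. These fits cannot tell whether the mean PGD difference depends on RNA integrity.

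**Figure D3:**
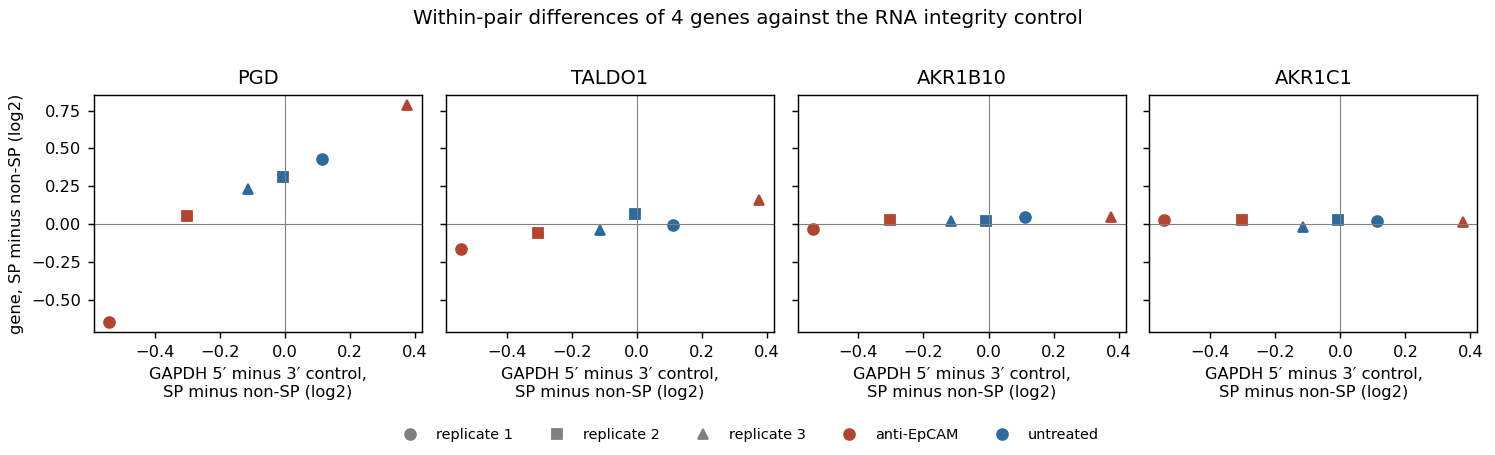
SP minus non-SP of 4 genes (vertical axis, log2) against SP minus non-SP of the GAPDH 5′ minus 3′ control (horizontal axis, log2) in the 6 pairs, with anti-EpCAM pairs in red and untreated pairs in blue. PGD runs from -0.65 to 0.78 in the order of the control, TALDO1 spans -0.16 to 0.16, and AKR1B10 and AKR1C1 stay within 0.05 of 0.

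TALDO1, the transaldolase of the non-oxidative pentose phosphate pathway, also had its lowest difference in anti-EpCAM pair 1 and its highest in anti-EpCAM pair 3 (chr11:747464-765012, GRCh38.p14). Probe set 201463_s_at read 13.06, 13.34 and 13.20 in anti-EpCAM SP cells, against 13.23, 13.40 and 13.04 in anti-EpCAM non-SP cells. Without the antibody it read 13.10, 13.04 and 13.28 in SP cells, against 13.10, 12.98 and 13.32 in non-SP cells. No group stood apart, and SP was lower in 4 of 6 pairs. The mean of SP minus non-SP was -0.0071 ± 0.059 (SE, n = 6 pairs), with a fold interval of 0.904 to 1.09 (limma adjusted p = 0.971). Its r with the GAPDH control was 0.935 (exact permutation p = 0.0125, adjusted p = 0.0667) and rho was 0.943 (exact permutation p = 0.0167, adjusted p = 0.133), with r of 0.623 when anti-EpCAM pairs 1 and 3 were left out. With the ACTB control r was 0.937 (exact permutation p = 0.0167, adjusted p = 0.0667) and rho 0.829 (exact permutation p = 0.0583, adjusted p = 0.233), and r was 0.500 without those pairs. AKR1B10, at a much smaller scale, had r of 0.817 with the GAPDH control (exact permutation p = 0.05, adjusted p = 0.16; rho 0.714, exact permutation p = 0.136, adjusted p = 0.363) and 0.806 with that of ACTB (exact permutation p = 0.104, adjusted p = 0.238; rho 0.371, exact permutation p = 0.497, adjusted p = 0.568). Without the 2 pairs these were 0.431 and -0.130, so they rest on those pairs.

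ME1, the cytosolic malic enzyme, is the longest of these genes (chr6:83210402-83431051, GRCh38.p14). Probe set 204059_s_at read 12.065, 12.350 and 11.998 in anti-EpCAM SP cells, against 11.880, 12.169 and 11.991 in anti-EpCAM non-SP cells. In untreated cultures it read 12.10, 12.06 and 12.21 in SP cells, against 12.25, 12.07 and 12.13 in non-SP cells. SP was higher in all 3 anti-EpCAM pairs, by 0.18 at most, and in 1 of 3 untreated pairs. Over the 6 pairs SP minus non-SP was 0.048 ± 0.057 (SE, n = 6 pairs), with a fold interval of 0.943 to 1.13 (limma adjusted p = 0.749), and the difference of this effect between treatments was not past the threshold for any member probe set. Against the GAPDH control ME1 ran the opposite way to PGD, with r of -0.751 (exact permutation p = 0.0847, adjusted p = 0.226), rho of -0.829 (exact permutation p = 0.0583, adjusted p = 0.233) and r of -0.979 without anti-EpCAM pairs 1 and 3. Its relation with the ACTB control and the 8 relations of AKR1C1, AKR1C2, AKR1C3 and NQO1 had adjusted p-values of 0.483 or more by exact permutation. The other ME1 probe sets gave 0.093 ± 0.056 for 204058_at and 0.12 ± 0.11 for 211204_at.

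The antioxidant response element to which NRF2 binds is commonly written with the core TGACNNNGC, and both strands of the 250 bases before each RefSeq start were searched for it. Of the 9 genes, 7 of the 8 measured had such a window, and AKR1C3 had 2. PGD and ME1 held a match, which is shown in capitals within 60 bases on the gene's strand (GRCh38.p14), and 2 of the 8 windows therefore held the core, against 10.9% of 35116 windows of all genes.
PGD, chr1:10398837-10398896, plus strand, match on the opposite strand as TGACATTGC: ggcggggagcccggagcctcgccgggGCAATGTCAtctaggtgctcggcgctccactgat
ME1, chr6:83431155-83431214, minus strand, match on the gene's strand as TGACTCAGC: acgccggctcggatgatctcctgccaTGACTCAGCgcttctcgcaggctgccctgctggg
The letters TGACTCAGC, a special case of the core, were in 0.456% of all windows and in 1 of the 8 member windows, that of ME1. A match describes letters and not binding, and a window without one says nothing about elements farther away.

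Split by treatment, the members again gave no call. Between SP and non-SP cells 0 of 20 passed in anti-EpCAM cultures and 0 of 20 in untreated cultures, with 0% of all probe sets passing in each and with 0 members at an unadjusted p under 0.05. The smallest unadjusted p of a member was 0.0588 in anti-EpCAM cultures and 0.185 in untreated cultures, while 8.34% and 8.46% of all probe sets were under 0.05 in those limma fits. In untreated cultures PGD 201118_at was 0.32 ± 0.22 higher in SP cells (SE, n = 3 pairs, limma adjusted p = 0.744), and in anti-EpCAM cultures 0.064 ± 0.22 higher (limma adjusted p = 0.957). Both SEs come from 1 estimate of the spread shared by all 6 pairs. The untreated differences lay between 0.23 and 0.43, and the anti-EpCAM ones between -0.65 and 0.78. The difference between these effects passed for 0 of 20 members and 0% of all probe sets, with 1.59% of all probe sets and 0 members at an unadjusted p under 0.05.

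The antibody comparison gave no call either. Over both fractions, anti-EpCAM minus untreated passed for 0 of 20 members and 0% of all probe sets, and 0 members had an unadjusted p under 0.05, against 0.476% of all probe sets. The same held in SP cells alone, with 0 of 20 and 0% passing and 0.424% of all probe sets under an unadjusted 0.05, and in non-SP cells alone, with 0 of 20, 0% and 0.766%. The members' median was 0.072 over both fractions, below the median of 0.093 of all probe sets. With each array centred on its median the estimates of AKR1B10, AKR1C1, AKR1C2, AKR1C3, NQO1 and TALDO1 were below 0 (-0.12 to -0.061) and PGD was 0.21, so no direction is given for the members. In the leading probe sets the difference lay between -0.062 ± 0.17 for ME1 and 0.35 ± 0.40 for PGD (SE, n = 3 pairs each, limma adjusted p = 1.00 for each). Leaving out 1 pair moved the PGD value to 0.74 ± 0.31 without untreated pair 3 (unadjusted p = 0.0466, limma adjusted p = 0.833) and to 0.60 ± 0.40 without anti-EpCAM pair 1. Leaving out anti-EpCAM pair 2 gave 0.083 ± 0.43, and the value was 0.16 ± 0.44 and 0.13 ± 0.44 without untreated pairs 1 and 2. The 95% interval of PGD ran from 0.669-fold to 2.41-fold, and that of NQO1, at 1.04-fold, from 0.775-fold to 1.41-fold. The pair means of AKR1C1 were 14.63, 14.89 and 14.84 with the antibody, against 14.67, 14.74 and 14.85 without it, so the antibody-treated cultures held both its lowest and its highest pair. ME1 211204_at, a dim probe set, had the largest estimate of the members at 0.58 ± 0.38 (limma adjusted p = 1.00).

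The leading probe sets of AKR1B10 and the AKR1C genes lay close to the top of the measuring range. The highest value on an array was 14.81 to 14.95, and on the same array AKR1C1 was 0.046 to 0.20 below it, AKR1C2 0.043 to 0.21, AKR1B10 0.11 to 0.34 and AKR1C3 0.31 to 0.48. Pair differences were small for any probe set at such levels. Their SD had a median of 0.16 over all 32768 probe sets, 0.074 over the 332 with means of 13 to 14, and 0.042 over the 170 with means above 14. The SD was 0.014 for AKR1C2, 0.017 for AKR1C1, 0.030 for AKR1B10 and 0.043 for AKR1C3. NQO1 had 0.051, near the median above 14. TALDO1, with 0.11, exceeded the median of its level, 0.074, and ME1 with 0.13 and PGD with 0.48 exceeded that of theirs, 0.10. How much of the narrow spread of the AKR1B10 and AKR1C values comes from the top of the range was not tested.

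**Figure D4:**
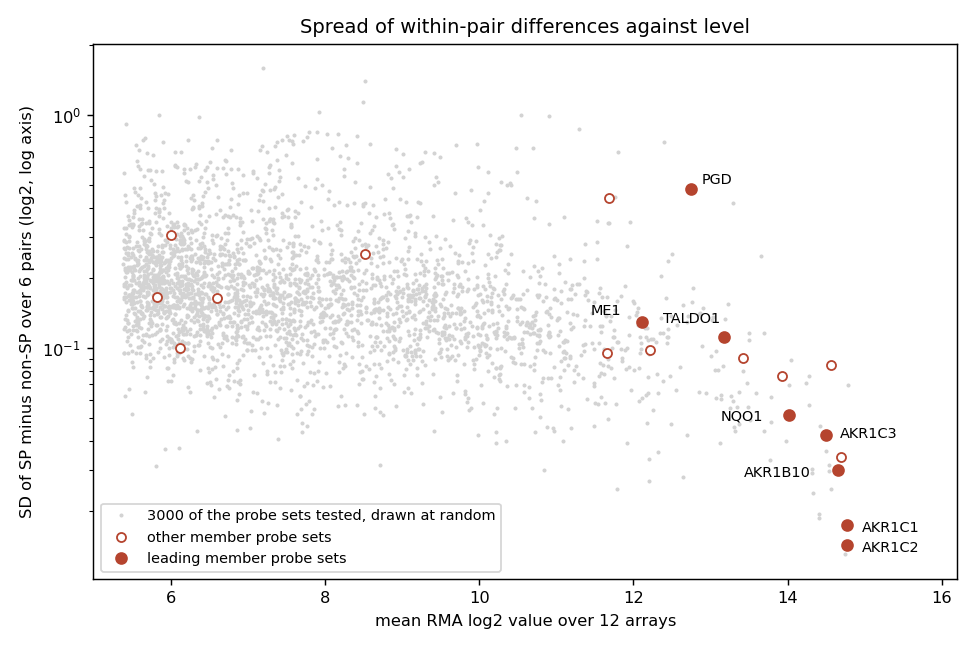
SD of SP minus non-SP over 6 pairs (vertical axis, log2 units on a log axis) against the mean RMA log2 value over 12 arrays (horizontal axis). Grey points are a random sample of the 32768 probe sets tested, filled red points are the leading member probe sets and open red points the other members; AKR1C1 and AKR1C2, at 0.017 and 0.014, lie at the lower right end and PGD, at 0.48, far above its neighbours.

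Most leading probe sets differed more between pairs than within them. For AKR1C1 the SD of pair means was 0.10, against 0.017 for the pair differences, and for AKR1B10 it was 0.14 against 0.030. For the leading ME1 probe set it was 0.11 against 0.13, whereas the other ME1 probe sets had 0.26 against 0.096 and 0.61 against 0.31. AKR1C1 217626_at, not a leading probe set, had 0.22 against 0.44. A difference of 2 arrays spreads more than their mean, so a larger SD of differences does not by itself mean more variation within pairs. In 6 of the 8 leading probe sets, all but ME1 and TALDO1, the pair means of anti-EpCAM pairs 2 and 3 and untreated pair 3 lay above those of the other 3 pairs. These are also the 3 pairs with the highest array medians, 6.14 to 6.24 against 5.59 to 5.83. When all 12 arrays were given 1 common distribution by quantile normalization, the range of pair means shrank to 0.047 for AKR1C1, against 0.26 as deposited, and to 0.11 for AKR1B10, against 0.31. That of PGD was 1.07, against 1.30 as deposited, and that of ME1 0.30, against 0.29.

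Over the 12 arrays the 8 leading probe sets moved together, with Pearson's r between 0.29 and 0.98 over their 28 combinations and a median of 0.83. AKR1C1 and AKR1C2 had the highest r and PGD and ME1 the lowest. These values are descriptions over arrays that share their overall level within pairs, and the members' mean profile had r of 0.85 with the array median. The genes with the most similar profile, by Pearson's r over 12 arrays with that mean, were PTGR1 at 0.990, HMGN1 at 0.988, KRT18 at 0.987, C12orf75 at 0.986 and TMEM218 at 0.984. PTGR1 is an NADPH-dependent reductase of prostaglandins and leukotrienes, HMGN1 a nucleosome-binding protein and KRT18 an epithelial keratin. Of 14641 genes, 1002 had r above 0.9 with the mean profile, and the median r over all of them was 0.69. Closest to AKR1B10 alone were ZFAND6 at 0.994, PDIA4 at 0.992, ATAD1 at 0.991, KIAA1191 at 0.991 and ASL at 0.990, among 1748 genes above 0.9.

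Among the regulators of NRF2, 10 of the 11 listed genes were tested, 1 probe set each, and 0 passed in the comparison of SP with non-SP cells, with 8 estimates higher and 2 lower in SP cells and a median of 0.055. NFE2L2, the gene of NRF2 itself, read 12.13, 12.61 and 12.32 in anti-EpCAM SP cells, against 11.78, 12.24 and 12.01 in anti-EpCAM non-SP cells. Untreated cultures gave 12.25, 12.14 and 12.58 in SP cells, against 11.95, 11.99 and 12.15 in non-SP cells. Groups overlapped, yet SP was higher in all 6 pairs, by 0.15 to 0.43. SP minus non-SP was 0.31 ± 0.06 (SE, n = 6 pairs), and it missed the threshold with a limma adjusted p of 0.0624 over probe sets. With 1 probe set per gene it passed (limma adjusted p = 0.0190), where 2.47% of 14649 genes passed, 150 higher and 212 lower in SP cells, and it passed with only probe sets above the 60th percentile tested (limma adjusted p = 0.0493). It passed in none of the other alternatives. The limma adjusted p was 1.00 without the pairs, 0.421 with trend and robust eBayes and 0.0743 with quantile normalization. With 1 pair left out in turn the limma adjusted p was 0.0771 to 0.255. The dimmer NFE2L2 probe sets gave 0.13 ± 0.12 and 0.033 ± 0.054, higher in 3 and in 4 of 6 pairs. BACH1, a repressor that competes for the same elements, was 0.27 ± 0.07 higher, in 5 of 6 pairs (limma adjusted p = 0.170). Its dimmer tested probe set gave 0.077 ± 0.080, higher in 4 of 6 pairs (limma adjusted p = 0.710). MAFF, a small MAF partner, was 0.23 ± 0.06 higher in all 6 pairs (limma adjusted p = 0.170), and KEAP1 was 0.088 ± 0.060 higher in 4 of 6 pairs (limma adjusted p = 0.550); both were chosen after their values were seen. Immediate-early genes, markers of stress and handling, moved alongside: ATF3 rose by 0.56 ± 0.06, EGR1 by 0.53 ± 0.07 and FOS by 0.45 ± 0.05 in SP cells, each in all 6 pairs (limma adjusted p = 0.0183, 0.0261 and 0.0224). These are 3 of the 7 listed, all 7 had positive estimates, and their median was 0.19. Averaged over the 7 genes, the level was 12.46 to 13.14 in anti-EpCAM SP arrays, against 12.11 to 12.93 in anti-EpCAM non-SP arrays, and 12.50 to 13.04 in untreated SP arrays, against 12.18 to 12.65 in untreated non-SP arrays. The part of such genes in the NFE2L2, BACH1, MAFF and GCLC differences was not tested.

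Of the other NRF2 targets, 27 of the 30 listed were tested and 0 passed, with 14 estimates higher and 13 lower in SP cells and a median of 0.0094. Unadjusted p was under 0.05 for 7 of the 27 in limma, against 14.3% of all probe sets. In the separate limma fit with 1 probe set per gene, 2377 of 14649 genes had an unadjusted p under 0.05. GCLC, part of glutamate-cysteine ligase at the start of glutathione synthesis, was 0.12, 0.43 and 0.35 higher in SP cells in the anti-EpCAM pairs, and 0.31, 0.25 and 0.45 higher in the untreated pairs. Its mean difference was 0.32 ± 0.06 (SE, n = 6 pairs, limma adjusted p = 0.0727). GCLC passed with 1 probe set per gene (limma adjusted p = 0.0232) and in none of the other alternatives. The limma adjusted p was 1.00 without the pairs and 0.421 with trend and robust eBayes. The other GCLC probe sets gave 0.30 ± 0.07 and 0.47 ± 0.08, each higher in all 6 pairs (limma adjusted p = 0.100 and 0.0584). OSGIN1, an oxidative stress-induced growth inhibitor, was 0.23 ± 0.07 higher in all 6 pairs (limma adjusted p = 0.183). At the other end, GSTA1, a glutathione transferase chosen here after its value was seen, was -0.31 ± 0.11 and higher in 2 of 6 pairs (limma adjusted p = 0.266).

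**Figure D5:**
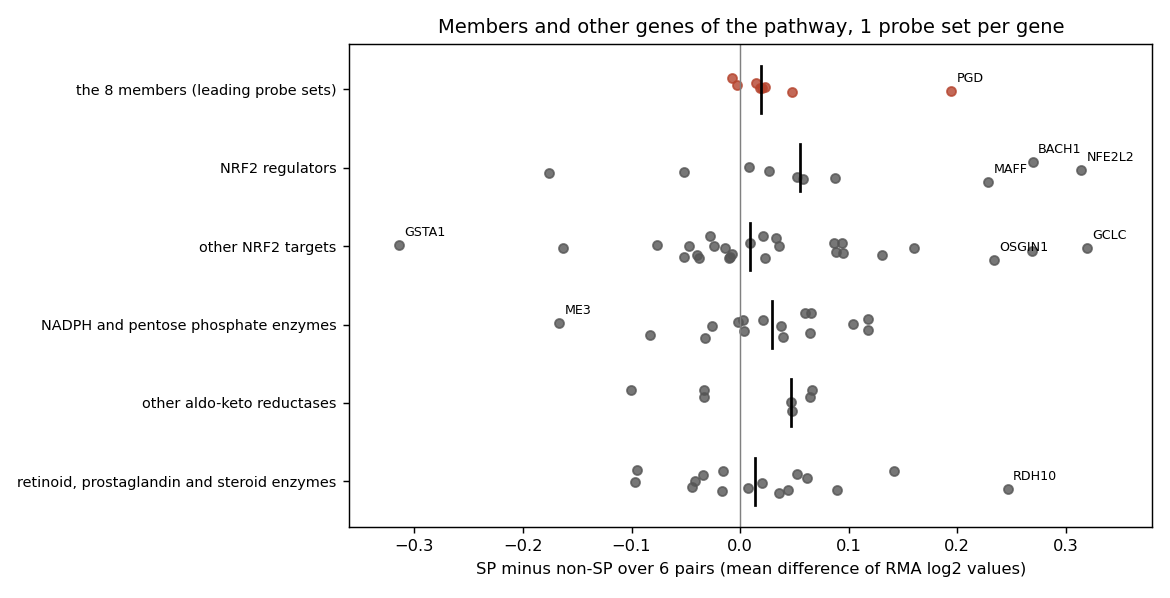
SP minus non-SP over 6 pairs (horizontal axis, mean difference of RMA log2 values) for the leading probe sets of the 8 members in red and for 5 lists of related genes in grey, 1 probe set per gene, with the list median as a vertical bar. Medians lie between 0.0094 and 0.055, and NFE2L2 at 0.31 and GCLC at 0.32 are the highest points of their lists.

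Of the NADPH and pentose phosphate enzymes, 16 of 17 listed were tested and 0 passed, 11 higher and 5 lower with a median of 0.029. ME3, the mitochondrial malic enzyme that also makes NADPH, was -0.17 ± 0.05 and lower in 5 of 6 pairs (limma adjusted p = 0.206). Its dimmer probe set gave 0.047 ± 0.072, higher in 3 of 6 pairs (limma adjusted p = 0.811). MTHFD2, a mitochondrial folate enzyme, was 0.12 ± 0.05 and higher in all 6 (limma adjusted p = 0.385), while a dimmer MTHFD2 probe set gave 0.27 ± 0.09, higher in 5 of 6 pairs (limma adjusted p = 0.225). TKT, the transketolase that works beside TALDO1, was 0.060 ± 0.048 and higher in all 6 pairs (limma adjusted p = 0.619), a gene chosen after its value was seen. The other TKT probe sets gave 0.17 ± 0.08 in 5 of 6 pairs and 0.28 ± 0.07 in all 6 (limma adjusted p = 0.392 and 0.127). Of the other aldo-keto reductases 7 of 12 listed were tested and 0 passed, 4 higher and 3 lower. Among them KCNAB2, a potassium channel subunit of the aldo-keto reductase fold, was -0.10 ± 0.05 (limma adjusted p = 0.443) but 0.072 ± 0.061 by its other probe set (limma adjusted p = 0.636). AKR7A2, an aldehyde reductase, was 0.047 ± 0.058 (limma adjusted p = 0.756), and 0.017 ± 0.16 by its other probe set, higher in 3 of 6 pairs (limma adjusted p = 0.974). Of the retinoid, prostaglandin and steroid enzymes 16 of 19 listed were tested and 0 passed, 9 higher and 7 lower, with a median of 0.014. RDH10, which makes the retinaldehyde that AKR1B10 reduces, was 0.25 ± 0.07 and higher in all 6 pairs (limma adjusted p = 0.179). Its dimmer tested probe sets gave 0.19 ± 0.07 and 0.42 ± 0.08, also in all 6 pairs (limma adjusted p = 0.271 and 0.0652). HSD17B1, a reductase of estrone, was 0.14 ± 0.06 in 5 of 6 pairs (limma adjusted p = 0.352), and 0.073 ± 0.12 in 3 of 6 by its other probe set (limma adjusted p = 0.830).

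With the antibody, 0 genes of any of the 5 lists passed over both fractions, and the smallest limma adjusted p was 1.00. By unadjusted p the leading genes were ALDH3A1, an aldehyde dehydrogenase, at 0.45 ± 0.48 and TRIM16L at -0.21 ± 0.16 among the other NRF2 targets (SE, n = 3 pairs each). Among the regulators they were FBXW11 at 0.088 ± 0.16, a subunit of a ubiquitin ligase that also acts on NRF2, and SQSTM1 at -0.075 ± 0.16, which sequesters KEAP1. PGLS and ME2 led the NADPH enzymes at 0.13 ± 0.18 and 0.12 ± 0.19, AKR1E2 and AKR7A3 the other aldo-keto reductases at 0.26 ± 0.27 and 0.20 ± 0.21, and HSD17B12 and HPGD the retinoid, prostaglandin and steroid enzymes at -0.20 ± 0.19 and 0.21 ± 0.27. The smallest unadjusted limma p among them was 0.231, for TRIM16L.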

How the data were processed

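Per the submitters' processing notes, the authors summarised the arrays with RMA, whose version is not given in the sources used here. The deposited values are log2 expression values per probe set, and no further normalization was applied. Controls (62 probe sets) were left out. Gene symbols came from the platform's probe table, in which 41091 probe sets had 1 symbol, 1801 several and 11721 none. The leading probe set of a gene is its tested one of highest mean.

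Tests used limma 3.58.1 in R 4.3.3 with eBayes, two-sided, and Benjamini-Hochberg adjustment over 32768 probe sets. Fraction effects were fitted on the differences within 6 pairs with treatment as a term (4 residual degrees of freedom), and antibody effects on pair means or on the arrays of 1 fraction. Deviations from group means correlated between the arrays of every pair (r of 0.52 to 0.86), and the design has each culture sorted into both fractions. The labels do not state that same-numbered arrays come from 1 sort. Between treatments, same-numbered arrays gave r of 0.48 to 0.66 for numbers 1 and 3, and of -0.36 and -0.20 for number 2. They were not paired. Since the arrays of a pair share their overall level, these correlations cannot tell a common sort from a common scale.

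Besides the members, the text names from each list, in the contrasts averaged over the other factor, genes that passed or else the 2 of smallest p, and the 5 genes of most similar profile. The members, lists and alternatives were chosen with earlier results of these data known. The procedures were tested on simulated data. Correlations over pairs used exact permutation. Sequences and gene positions are from RefSeq, GRCh38.p14. Genes of the lists without an annotated probe set were not analysed here. Alternatives covered pairing, normalization, filters, variance model, probe sets per gene, integrity controls as covariates and each replicate left out.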

Additional observations from a re-analysis of the deposited data

Results flagged for a closer look

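One result lay far from the others of its group. For AKR1C1 probe set 1555855_at, SP minus non-SP in untreated pair 3 was -0.386, while the other 5 pairs lay between -0.27 and -0.21. Its gap to the nearest pair was 0.693 of the whole range, above Dixon's 95% critical value for 6 values. In that pair the probe set read 5.66 in SP cells, against 6.04 in non-SP cells. Chance flags about 1 in 20 groups, and 21 groups of 6 pairs were checked. The sign is the same in all 6 pairs.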

How the results depend on the processing

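The count of member probe sets that passed was 0 in all 7 contrasts and remained 0 in all 93 combinations of contrast and alternative, also with each replicate left out in turn (0 to 0), with a smallest limma adjusted p of 0.113. Without the replicate block, that is with the 12 arrays taken as independent and no pairing, 0 members passed between SP and non-SP cells, and with a replicate block on number between treatments 0 passed with the antibody. Between SP and non-SP cells 210 probe sets of the whole array passed over both treatments, against 0 without pairing, 0 with trend and robust eBayes, 0 without anti-EpCAM pairs 1 and 3, 362 with 1 probe set per gene and 125 with the GAPDH control as a covariate. Leaving out anti-EpCAM pair 1, 2 or 3 gave 322, 0 and 11, and leaving out untreated pair 1, 2 or 3 gave 10, 22 and 0, so the background share rests on single pairs; the cause was not tested. Of 232 values of leading probe sets under alternatives, 209 kept their sign and 23 changed it, with none of them called and none above 0.12 in size after the change. Many of the 209 could not change. The value stays as it is without pairing, with another filter or variance model, with 1 probe set per gene, a covariate or a replicate block. Only normalization and left-out pairs could move it. PGD ranged from 0.014 to 0.37 between fractions and from 0.083 to 0.74 with the antibody. Values near the top of the measuring range and 3 arrays per group limit what can be detected.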
